A study of Brassica rapa subsp. pekinensis with 2 samples.

Results

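The authors listed genes of unknown function that were expressed in only 1 kind of bud of Chinese cabbage. From that list, 36 genes are described here whose descriptions name pollen, the male gametophyte or sperm cells. The list held 82 genes, each at 0 RPKM in sterile buds, and 66 of them had a description. One of the words was present in 44 descriptions. The 8 of these that name the DUF1216 domain were left out, as were Bra005946 and Bra028692, whose descriptions hold none of the words. The genes were thus chosen by the authors' value of 0 RPKM in sterile buds, and then by the wording of a description that refers to Arabidopsis thaliana. Neither is a finding here. The 36 genes are a small part of the 41019 genes measured.

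RNA was sequenced from flower buds of the Chinese cabbage AB02, Brassica rapa subsp. pekinensis. AB02 is an AB line, in which male sterile plants are kept up by crossing with fertile plants of the same line, and its sterility is genic with multiple alleles, per the series title. One library came from buds of the fertile genotype and 1 from buds of the sterile genotype. All plants were grown in a greenhouse after vernalization, with no agent named in the labels, and the sources used here give no bud stage, plant age or number of plants per library. With 1 library a group, no difference below has a replicate check, and intervals cover counting error only. RPKM is a read number scaled to the length of the gene and to the total of the library, so levels can be compared between genes. The library totals recovered from the values were 1803154 reads in fertile and 1567647 reads in sterile buds, and 70.9% and 66.5% of the genes were above 0.

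Pollen is the male gametophyte of flowering plants. Each grain holds a large vegetative cell, which forms the pollen tube, and the sperm cells that the tube carries to the ovule. Pollen makes and stores many transcripts late in its development, and a large share of them code for secreted and cell wall proteins used when the tube grows. The grains mature inside the anther, beside the tapetum, a nursing cell layer that supplies wall and coat material. Since whole buds were sequenced, fewer pollen cells and less RNA per pollen cell cannot be told apart.

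Of the 12 marker genes listed for pollen, tapetum and other bud cells, 1 could be found. The files pair only 225 Bra identifiers with an Arabidopsis code, all of them genes that the authors list as different. A marker outside that list could not be found, so the 1 found is no independent reading. It was PPME1, a pectin methylesterase of the pollen tube wall. Its copies Bra009265 and Bra028699 had 400.03 and 168 RPKM in fertile buds, and both were at 0 in sterile buds. The levels of other bud cell types were therefore not analysed here.

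In fertile buds the 36 genes ranged from 6.42 to 726 RPKM (median 63.7), and each was at 0 in sterile buds. Together they held 0.312% of the summed RPKM of the fertile library, from 3831 reads. The median of all genes above 0 in that library was 8.8 RPKM. Among the genes ranked by level in fertile buds, 5 of the 36 stood within the first 1000 ranks and 23 within the first 5000. At least 100 RPKM was reached by 13 of the 36 (36.1%) and by 8.03% of all genes above 0. Among the 439 other genes at 0 in sterile buds that the authors listed as different, the share was 33.9%. No gene so listed at 0 in sterile buds had fewer than 27 reads in fertile buds. A level above that of all genes is thus partly set by the choice, and nothing is read from it.

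The remaining genes of the authors' list were higher in the middle, at a median of 108 RPKM over 46 genes with a range from 8.9 to 4894 RPKM. Including these 46, the authors listed 439 other genes as different that stood at 0 in sterile buds. Their median was 60.1 RPKM, near the median of the 36 genes. The upper parts were less alike, with upper quartiles of 119 RPKM for the 36 and 146 RPKM for the 439. The highest of the 439 had 6991 RPKM. The nearness of the medians also depends on the rule, since keeping the DUF1216 and oleosin genes in gave a median of 101 RPKM. Over these sets no test was made, since genes of 1 library are not replicates.

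**Figure D1:**
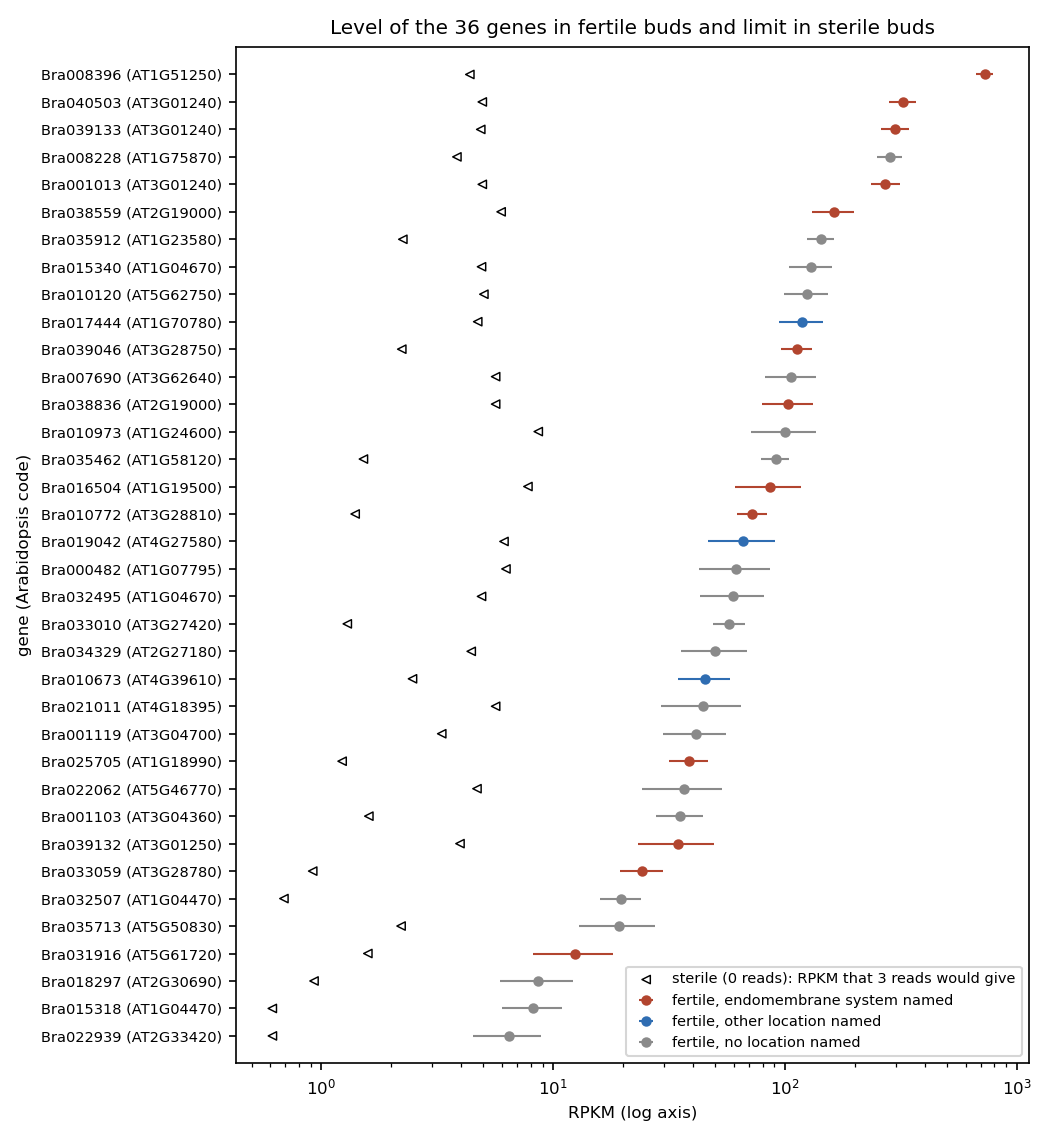
RPKM (log axis) of the 36 genes in the fertile library, ordered by level, with 95% Poisson counting intervals and coloured by the location that the description names. Open triangles give the RPKM that 3 reads would be worth in the sterile library, where each gene had 0 reads. The filled points run from 6.42 to 726 RPKM, and each lies to the right of its triangle.

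By a rule of size, a difference of 1 or more in log2(RPKM + 1), all 36 genes were lower in sterile buds, as were 14.5% of the 27940 genes with RPKM of at least 1 in a library. The 0 in sterile buds chose these genes, so nothing is read from this count. Among genes of at least 5 RPKM in fertile buds, 5.07% were at 0 in sterile buds. The median difference of the 36 genes, sterile minus fertile, was -6.01 on the log2(RPKM + 1) scale, beside 0.17 over all 27940 genes. The choice of genes at 0 sets that gap, and the 439 other genes at 0 in sterile buds that the authors list as different had a median of -5.93. Because a count of 0 allows up to 3 reads, each fold is given as a bound against 3 reads in the sterile library. These bounds ran from at least 7.82-fold to at least 166-fold lower, with a median of 20.4. The lower ends of the 95% counting intervals, which also take in the error of the fertile reads, ran from 5.94 to 135. For these genes the authors' deposited table gives log2 fold changes of fertile over sterile between 5.02 and 9.43. The highest q-value among them in the authors' deposited table was 0.000951, just inside the 0.000999 that was the highest of any listed gene.

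Domains or named protein matches were given for few of the 36 genes. By the deposited descriptions, 1 carried a plant self-incompatibility S1 domain, 3 carried Munc13 homology domains with DUF810, 1 a C2 domain and 1 DUF617. The best Arabidopsis match was a glycine-rich protein for 2 genes and a group of methyltransferases for 1. Another 4 genes shared an Arabidopsis code with a DUF1216 gene, although their own descriptions do not mention the domain. For 23 genes the description gave neither a domain nor a named match. By keywords for cell wall, signalling, secreted protein, transport, RNA, protein turnover and metabolism classes, 28 of the 36 descriptions matched none. Another 5 matched only words for an unknown protein. Those words include DUF, so the Munc13 homology and DUF617 genes are among these 5.

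The S1 domain gene was the most abundant of the 36. Bra008396 (AT1G51250) had 726 RPKM from 573 reads in fertile buds and 0 reads in sterile buds. Its bound of at least 166-fold lower was the largest of the set, and its counting interval began at 135-fold. S1 domain proteins are small secreted proteins named after the stigma protein that rejects self pollen in the field poppy. The description of Bra008396 places it in the endomembrane system and names the male gametophyte and pollen tube as its only sites. In the authors' list 3 more genes carried an S1 domain, all with the code AT1G09245 and with no word for pollen in their descriptions. Bra032974 had 69.3 RPKM, Bra020356 56.7 RPKM and Bra031659 49.6 RPKM in fertile buds. The level of Bra008396 was 10.5 times that of the highest of them (counting interval 7.85 to 14.2).

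The genes with Munc13 homology were among the lowest. In animals, Munc13 proteins prime vesicles for release at the membrane, and the domain is shared by plant proteins of the DUF810 family. Bra032507 (AT1G04470) had 19.6 RPKM from 98 reads in fertile buds and none in sterile buds, a bound of at least 28.4-fold lower. Bra015318, which has the same code, had 8.19 RPKM from 46 reads, with a bound of at least 13.3-fold lower. The third, Bra022939 (AT2G33420), was the lowest of the 36 at 6.42 RPKM from 36 reads, at least 10.4-fold lower. Bra032507 exceeded Bra022939 3.05-fold (interval 2.06 to 4.6). The ratio of Bra015318 to Bra022939 was 1.28, and its interval from 0.807 to 2.03 included equality. These were also the longest genes of the set, with recovered coding lengths from 2775 to 3114 bp.

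Other genes with a domain or named match lay in between. Bra001103 (AT3G04360), which carries a C2 domain, a module that binds membrane lipids and often calcium, had 35.3 RPKM in fertile buds, with a bound of at least 22-fold lower. Bra010673 (AT4G39610) carries DUF617, a domain also found in MIZ1, which acts in root bending towards water in Arabidopsis. Its level was 45.1 RPKM, with a bound of at least 18.3-fold lower. Bra035462 (AT1G58120), whose best match is a group of methyltransferases, enzymes that add methyl groups, had 91.1 RPKM from 207 reads, with a bound of at least 60.0-fold lower. The glycine-rich protein matches, a broad class that includes wall proteins, were the AT2G19000 copies. Bra038559 had 162 RPKM from 94 reads, a bound of at least 27.2-fold lower, and Bra038836 had 103 RPKM from 63 reads, at least 18.3-fold lower.

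Among the genes with no domain or named match, Bra008228 (AT1G75870) stood highest apart from the AT3G01240 copies, with 283 RPKM from 254 reads in fertile buds and a bound of at least 73.6-fold. Bra010120 (AT5G62750) had 124 RPKM from 85 reads, a bound of at least 24.6-fold lower. Bra007690 (AT3G62640) had 106 RPKM and Bra010973 (AT1G24600) 99.9 RPKM. The last is the shortest of the set at 222 bp, and its 40 reads gave a bound of at least 11.6-fold. At the low end Bra018297 (AT2G30690) had 8.62 RPKM from 32 reads, at least 9.27-fold lower, and Bra035713 (AT5G50830) 19.2 RPKM. The other genes of this kind without a second copy ran from 34.4 RPKM in Bra039132 (AT3G01250) to 85.7 RPKM in Bra016504 (AT1G19500).

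The descriptions differed in how closely they tie a gene to pollen. A mature pollen stage was named for 30 of the 36 and a germinated pollen stage for 28. Pollen tubes were named for 19 and sperm cells for 8. Only male structures were named for 6 genes, namely Bra008396, Bra017444, Bra035462, Bra010772, Bra032507 and Bra015318. In fertile buds these 6 ranged from 8.19 to 726 RPKM (median 81.6), and the other 30 ranged from 6.42 to 321 RPKM (median 60.7). Bra008396, at 726 RPKM, lay above the range of the other 30, and the rest of the 6 lay within it. For many of the 30, such as the AT3G01240 and AT2G19000 copies, the description gives a number of plant structures without naming them. The 30 thus mix genes with other organs named and genes whose structures are not listed.

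Many descriptions named other organs or developmental stages as well. A carpel was named for 14 genes, guard cells for 5 and roots or root hairs for 4. Descriptions that give only a number of structures add nothing to these counts. The stage of petal differentiation was named for 27 genes, and a plant embryo or a globular stage for 23. The description of Bra033010 (AT3G27420) lists leaves, seeds, roots and stems beside pollen, and this gene had 153 reads in fertile buds, or 57.4 RPKM, and none in sterile buds. For Bra000482 (AT1G07795) a sperm cell is the only one of the words, named beside root hair cells and trichoblasts. Its 34 reads, or 61.6 RPKM, gave a bound of at least 9.85-fold lower. Pollen exine, the outer pollen wall, was named for Bra033059 alone, which had 24.2 RPKM.

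A location was named for 16 of the 36 genes. For 13 it was the endomembrane system, the compartments through which secreted proteins pass. In fertile buds these 13 ranged from 12.4 to 726 RPKM (median 103). The other 23 ranged from 6.42 to 283 RPKM (median 57.4). The higher median rests in part on copies, since the 3 AT3G01240 genes and both AT2G19000 genes are among the 13. A mitochondrion was named for Bra017444 (AT1G70780), at 118 RPKM from 86 reads with a bound of at least 24.9-fold lower, and, with the cell wall, for Bra019042 (AT4G27580) at 65.8 RPKM. A chloroplast was named for the DUF617 gene.

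Level in fertile buds moved with coding length. The 20 genes of at most 500 bp had a median of 105 RPKM and a range from 34.4 to 726 RPKM. Above that length and up to 1600 bp, 11 genes had a median of 45.1 RPKM. The 5 longest genes, from 2058 to 3114 bp, had a median of 8.62 RPKM and none exceeded 24.2 RPKM. The lowest RPKM at which the authors could list a gene moves with length in the same way. No listed gene at 0 in sterile buds had fewer than 27 reads in fertile buds, and 27 reads are worth 67.4 RPKM at 222 bp and 4.81 RPKM at 3114 bp. Exactly 27 reads were found for 3 of the 36, namely Bra021011, Bra022062 and Bra031916. The part of the read threshold in the pattern of levels was not tested. The set was short, at a median of 460.5 bp against 945 bp in the 439 other fertile-only genes listed as different, and the other 46 genes of unknown function were short too, at 550.5 bp.

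**Figure D2:**
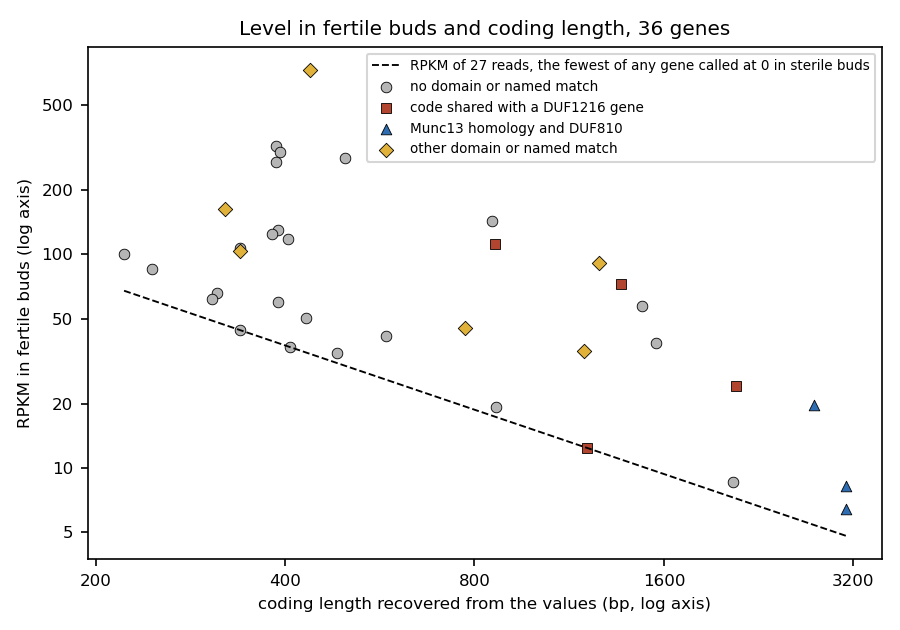
RPKM in fertile buds (log axis) against recovered coding length in bp (log axis) for the 36 genes, with symbols for the protein information in the description. The dashed line gives the RPKM that 27 reads are worth at each length, from 67.4 RPKM at 222 bp to 4.81 RPKM at 3114 bp, and no point lies below it.

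The 36 genes carried 31 distinct Arabidopsis codes. Brassica rapa went through a whole-genome triplication after its line split from that of Arabidopsis, so that an Arabidopsis gene often has several counterparts. For 20 of the 36 no other gene with the same code was found among the 225 genes that the authors' files pair with a code. The other 16 shared 11 codes with each other or with 9 further genes, all 9 of them in the authors' list. Copies outside the 225 genes were not analysed here. How reads shared by near-identical copies were counted is not given in the sources used here, so single values of such copies are uncertain.

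The 3 copies of AT3G01240 did not differ in level beyond counting error. Bra040503 had 321 RPKM from 224 reads, Bra039133 had 299 RPKM from 212 reads and Bra001013 had 271 RPKM from 189 reads in fertile buds. Each had 0 reads in sterile buds, with bounds of at least 64.9-fold, 61.4-fold and 54.8-fold lower. The ratio of the highest to the lowest was 1.19, and its counting interval from 0.972 to 1.45 included equality. They were the second, the third and the fifth most abundant of the 36 genes. The description gives a place in the endomembrane system and no function.

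The AT1G58120 copies had 91.1 RPKM in Bra035462 and 90.4 RPKM in Bra027884, whose description is empty, and did not differ beyond counting error either (ratio 1.01, interval 0.826 to 1.23). Unequal levels were found for AT2G19000, where Bra038559 exceeded Bra038836 1.58-fold (interval 1.13 to 2.2). For AT1G70780, Bra017444 exceeded Bra024876, at 74.5 RPKM, 1.58-fold (interval 1.12 to 2.25). Of the AT1G04670 copies, Bra015340 had 129 RPKM from 91 reads and Bra032495 had 59.7 RPKM from 42 reads, a ratio of 2.17 (interval 1.49 to 3.2). Against 3 reads in sterile buds they were at least 26.4-fold and at least 12.2-fold lower. The Munc13 homology genes Bra032507 and Bra015318 differed 2.39-fold (interval 1.67 to 3.47). Bra015318 and Bra015340 have identifiers close in number, as do Bra032507 and Bra032495. The order of the copies was opposite for the 2 codes: the higher AT1G04670 copy has the number close to that of the lower AT1G04470 copy.

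The AT1G23580 copies show how far membership depends on the wording. Of these 4 genes Bra035912, at 143 RPKM from 219 reads, is the only one whose description mentions pollen. Bra016337 had 194 RPKM and is described by DUF220, a domain of unknown function. Bra016338 had 133 RPKM and Bra016341 36.8 RPKM, and their descriptions name flower, petal and sepal without pollen. Bra035912 did not differ from Bra016338 beyond counting error (ratio 1.07, interval 0.881 to 1.3), while it exceeded Bra016341 3.87-fold (interval 3.09 to 4.87). All 4 were at 0 in sterile buds, as every gene of the authors' list was, with a bound of at least 63.5-fold lower for Bra035912.

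The widest gaps were between the 4 genes that share a code with a DUF1216 gene and their described copies. Bra039046 (AT3G28750) had 112 RPKM in fertile buds, and its copy Bra025352 was 27.2-fold higher (interval 23.4 to 31.8). Bra010772 (AT3G28810) had 72.2 RPKM, and Bra025386 was 23.2-fold higher (interval 19.8 to 27.2). The reads of Bra010772 and Bra025386 were 178 and 1646, at recovered lengths of 1368 and 546 bp, so this fold rests in part on unlike lengths. For AT3G28750 the higher copy was the longer, at 1422 bp against 861 bp. The intervals take lengths as exact. Bra031916 (AT5G61720) had 12.4 RPKM, and Bra012929, at 266 RPKM, was 21.5-fold higher (interval 14.6 to 32.8). Bra033059 (AT3G28780) had 24.2 RPKM, and Bra025354, at 329 RPKM, was 13.6-fold higher (interval 11 to 17.1). Against 3 reads in sterile buds, the bounds of Bra039046, Bra010772, Bra031916 and Bra033059 were at least 50.4-fold, 51.6-fold, 7.82-fold and 26.4-fold lower. In the other 7 shared codes the highest copy exceeded the lowest by between 1.01-fold and 5.28-fold, and the interval lay above equality for 5 of them. In each of the 4 codes the lower copy is the one whose description does not mention DUF1216. Leaving DUF1216 descriptions out of the set therefore took out the higher copy each time.

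**Figure D3:**
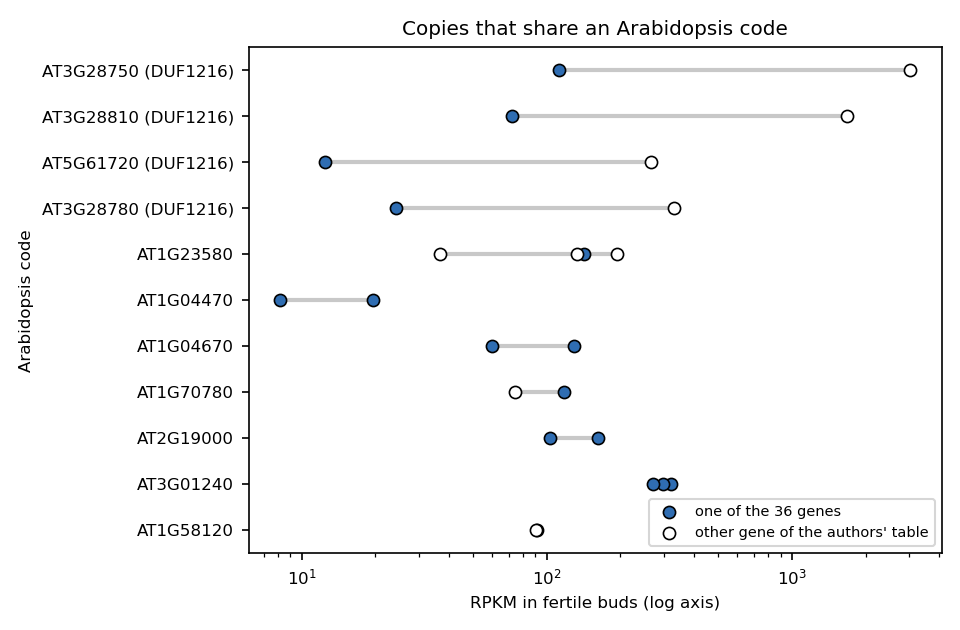
RPKM in fertile buds (log axis) of genes that share an Arabidopsis code, with filled points for the 36 genes, open points for other genes of the authors' list and a grey line from the lowest to the highest copy. Codes are ordered by the ratio of the highest to the lowest copy, from 1.01 for AT1G58120 at the bottom to 27.2 for AT3G28750 at the top, and the DUF1216 codes hold the 4 widest gaps.

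Genes numbered next to the AT3G01240 copies were at 0 in sterile buds as well in several cases. Identifier numbers are used here as an order of names only, and no genome positions were used. Bra039132 (AT3G01250), also one of the 36, had 34.4 RPKM in fertile and 0 in sterile buds, and its neighbour Bra039133 was 8.68-fold higher (interval 5.91 to 13.2). The next number, Bra039134 (AT3G01230), had 95.4 RPKM and 0. Beside the other copies, Bra001015 (AT3G01230) had 162 RPKM and Bra040502 (AT3G01230) had 57 RPKM in fertile buds, and both were at 0 in sterile buds. AT3G01270, which the authors' pathway table lists under pentose and glucuronate interconversions and which belongs to the pectate lyases, was represented by Bra001011 at 55.6 RPKM and Bra040506 at 123 RPKM, both at 0 in sterile buds. Codes were available only for genes that the authors list as different, so the 0 of the coded genes is tied to how they were found. Genes between and around the coded genes, with no name here, varied. Bra040504 had 16.4 RPKM and Bra039136 had 5.35 RPKM in fertile buds, and both were at 0 in sterile buds. Bra001012 and Bra001014 were at 0 in both libraries, and Bra039131 was present in both, at 78.6 RPKM in fertile buds against 93.6 in sterile buds.

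In RPKM, the balance between AT3G01240 and AT3G01230 was unlike from copy to copy. The AT3G01240 gene exceeded its AT3G01230 neighbour 1.68-fold for Bra001013 (interval 1.32 to 2.14), 3.14-fold for Bra039133 (interval 2.37 to 4.21) and 5.64-fold for Bra040503 (interval 4.2 to 7.68). The first interval lay below the others, and the last 2 overlapped slightly. The intervals between AT3G01240 copies included equality, while the AT3G01230 genes stood at 162, 95.4 and 57 RPKM. These came from 111, 65 and 57 reads, at recovered lengths of 381, 378 and 555 bp. The intervals take lengths as exact, so the ratio for Bra040503 also rests on the longer length of its neighbour.

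**Figure D4:**
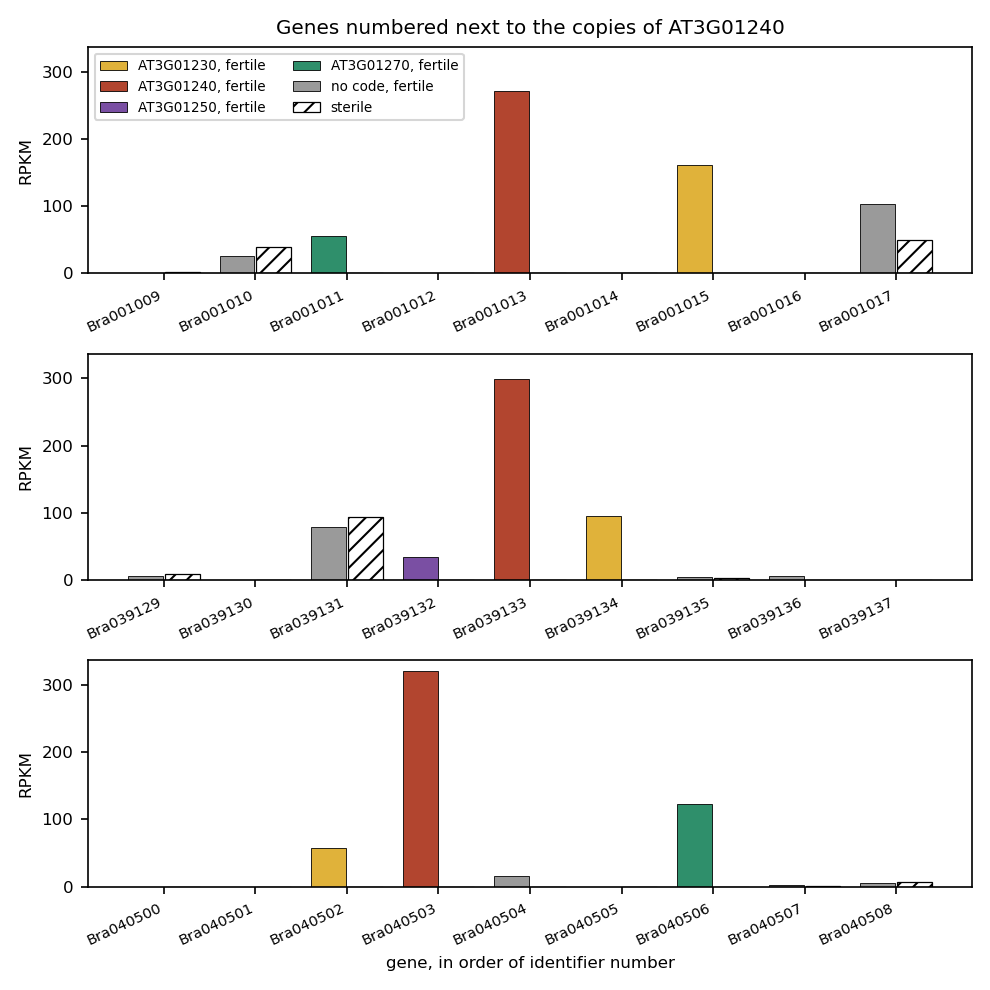
RPKM (linear axis) of 9 genes in order of identifier number around each AT3G01240 copy, with filled bars for fertile buds coloured by Arabidopsis code and hatched bars for sterile buds. The AT3G01240 bars, at 271, 299 and 321 RPKM, are the tallest in their panels. None of the coloured genes has a hatched bar, but only genes that the authors list as different carry a code and so a colour.

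Taking the genes 1 number away from any of the 36, 70 further genes were found, and 19 of these were at 0 in both libraries. Of the 48 with RPKM of at least 1 in a library, 12 (25%) were lower in sterile buds by the rule of size and 7 were higher, beside 14.5% and 11.5% of all genes kept. The shares in both directions were thus above those over all genes. Within 3 numbers, 35 of 154 (22.7%) were lower and 19 were higher. At least 5 RPKM in fertile buds was reached by 34 of the 70. Of these 34, 7 (20.6%) were at 0 in sterile buds, beside 5.07% of all 18264 genes at that level. Within 3 numbers the share was smaller, at 13 of 106 (12.3%). Of the 7, Bra040502, Bra040504 and Bra039134 stand beside the AT3G01240 copies already described. Another is Bra008229, a gene with no name here, at 228 RPKM beside Bra008228 at 283 RPKM. A further one is Bra033060 (AT3G28790), a DUF1216 gene at 182 RPKM, beside Bra033059. The remaining ones are Bra034330 at 13.9 RPKM and Bra035714 at 5.21 RPKM in fertile buds, the last just above the limit of 5 RPKM. A test of these shares was not made, and 39 of the 70 neighbours were above 0 in sterile buds.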

How the data were processed

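Messenger RNA was measured in 1 library of fertile and 1 library of sterile buds. The authors deposited expression as RPKM per the file headers, and the submitters' processing notes name TopHat. Genome build, annotation, read counter and tool versions are not given in the sources used here. A comparison table deposited by the authors gives log2 fold changes of fertile over sterile, each with a p-value and a q-value, and the test behind them is not given in the sources used here. Further tables gave Arabidopsis codes, descriptions and pathways.

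For the 475 listed genes at 0 in sterile buds, the deposited fold change is a fixed multiple of the read number. Dividing by it left values no further than 1.08e-10 from whole reads (tolerance 0.0001). Lengths in steps of 3 bp, as coding lengths have, then gave the library totals. Steps of 1 bp would make the totals 3 times larger and the lengths 3 times shorter, with the reads and folds unchanged. Reads of 1 gene in fertile buds carry 95% Poisson intervals, ratios of 2 genes 95% Clopper-Pearson intervals, and a count of 0 allows 3 reads. Genes with RPKM of at least 1 in a library were kept, and lower or higher means that log2(RPKM + 1) differed by at least 1. That is a rule of size with no test behind it, and the scale understates the difference of low genes. No p-value was computed with 1 library a group.

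The genes and lists were chosen with earlier results of these data known. Every one of the 36 genes could be named, with full values for the 10 highest, the 3 lowest, those with copies and the 2 highest of each class. The grouping by domain, the neighbouring identifiers and the length classes were chosen after the values were seen. None of the 36 matched the RefSeq gene table (assembly CAAS_Brap_v3.01). Read recovery and the rule of size were tested on simulated data. The simulated lengths were also in steps of 3 bp, so that step itself was not checked. Python 3.11.15, pandas 2.3.3, NumPy 2.4.6 and SciPy 1.17.1 were used.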

Additional observations from a re-analysis of the deposited data

How the results depend on the processing

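Of 13 alternatives, 9 left the value within counting error or, for a count, within 1.5 times. None turned a direction, which genes chosen at 0 in sterile buds could not do. Several of the 9 were fixed in advance and are no check. The 36 genes were at 0 in sterile buds exactly, and so also under the value of 3 reads. Rescaling the sterile library by the median ratio or a trimmed mean cannot move a value of 0. In log2(RPKM + 1), the 36 genes had a median difference of -6.01, against -9.32 with a pseudocount of 0.1 and -4.35 with genes at 0 set to their bound of 3 reads, so its size is set by how a 0 is treated. The median level of 63.7 RPKM rose to 101 RPKM with the DUF1216 and oleosin genes kept in. The number of kept genes lower by the rule of size was 4042, and 2426 when at least 5 RPKM was required, since fewer genes then enter. Dropping the filter on low values also gave 4042, since genes under 1 RPKM in both libraries cannot pass the rule. No paired analysis was possible because each group had 1 library, and for the same reason no replicate could be left out. Depth limits the bounds: for a gene with 27 reads in fertile buds, the bound against 3 sterile reads is 7.82-fold, and the 95% counting interval that takes in the error of the 27 reads starts at 5.94-fold.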
